A study of Rattus norvegicus with 24 samples.

Results

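The genes described here encode the proteins of the cytosolic ribosome. They were chosen by name: every row of the deposited count files whose symbol is Rpl or Rps followed by a number and at most 1 further letter. The rule took 96 of 17048 rows, which carried 76 of 16881 distinct symbols, 45 for proteins of the large (60S) subunit and 31 for proteins of the small (40S) subunit. Measured values played no part in the choice. The name rule leaves out the stalk proteins Rplp0, Rplp1 and Rplp2, as well as Rpsa, Fau and Rack1.

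The study measured lung RNA of rats, labelled wild type, treated with whole-cigarette smoke condensate (WCSC), the trapped material of cigarette smoke, or left as controls. There were 8 groups of 3 libraries, 24 in all: a control and 5, 10 and 20 mg/mL WCSC, each at 6 days and at 12 days. The labels state no strain, age, vehicle or route of exposure, nor if each replicate came from its own animal; p-values therefore measure the spread between these samples, which may be technical. Each replicate is named below by its group and its number in the labels. The libraries were made from total RNA with a Lexogen QuantSeq kit, which reads the 3′ ends of polyadenylated transcripts, so a value is a share of transcripts' ends and not of their length. Total counts ran from 4795667 to 11109713 per library. Lung identity was read from 9 measured surfactant and other alveolar type II genes, all of which had counts.

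A ribosome is built from ribosomal RNA and about as many proteins as there are genes in this set, which are used in equal numbers, so cells make these proteins in step. Most of their mRNAs begin with a cytosine followed by an unbroken run of pyrimidines, the 5′ terminal oligopyrimidine (TOP) motif. Through it the mTOR pathway, with the protein LARP1, sets how strongly and how stably these mRNAs are used when nutrients, growth signals or stress change.

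The start sites of some members are given first, since this motif is what the set is best known to share. RefSeq promoters of the rat build GRCr8 were matched by symbol for 60 of the 76 genes, in 61 entries. A TOP start was scored where the annotated first base was C and at least 5 pyrimidines ran on from it, that first C included, on the sense strand. It was present in 22 of 61 entries (36.1%), against 2.63% of all 33469 promoters in the table. The windows that follow run from 15 bases before the annotated start to 15 bases from it on, 5′ to 3′, with the pyrimidine run in capitals. The first 6 have the run, among them genes that moved much between libraries (Rpl37, Rpl35a) and genes that moved little (Rpl28, Rpl10).
Rpl37, GRCr8 chr2:55942930-55942959, forward strand: tggtaggcgtactttCTCTTCCggtctctt
Rpl35a, GRCr8 chr11:81235007-81235036, reverse strand: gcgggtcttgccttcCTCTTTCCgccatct
Rps15, GRCr8 chr7:10068101-10068130, reverse strand: cgctgacaccgcttcCTTTTCCCagcagcc
Rpl10, GRCr8 chrX:157205835-157205864, forward strand: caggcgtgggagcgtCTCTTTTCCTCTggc
Rpl28, GRCr8 chr1:78083518-78083547, reverse strand: ccccgcccctagtgtCTTTCTTTCCgtctc
Rpl19, GRCr8 chr10:83519049-83519078, forward strand: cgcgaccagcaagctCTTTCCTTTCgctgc
The next 3 have no such run at the annotated start. Rpl12 and Rpl3l are the genes with the widest spread between libraries, and Rpl6 is the one with the narrowest.
Rpl12, GRCr8 chr3:36661925-36661954, forward strand: ggagcaacatccgtcttttcggctttcggt
Rpl6, GRCr8 chr12:41011676-41011705, reverse strand: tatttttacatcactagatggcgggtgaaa
Rpl3l, GRCr8 chr10:14258431-14258460, forward strand: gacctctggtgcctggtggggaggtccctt
In Rpl12 the annotated first base is not C, which the rule asks for. An annotated start can be off by some bases, and a missing run says only that it is not at this base. CCGGAA, searched on both strands of the 300-base windows that end 50 bases past the start, was in 30 of 61 entries (49.2%) and in 15.0% of all promoters. GGGCGG was in 34 entries (55.7%), against 33.1% of all, and TATAAA in 6 entries (9.84%), against 14.2%. The spread between replicate libraries, defined below, had a median of 0.58 in the 22 genes with a TOP start (0.26 to 0.95) and of 0.53 in the 38 genes matched without one (0.25 to 1.83), and these ranges overlap.

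Ribosomal protein genes have many near-identical processed copies in mammalian genomes, so the rows of the files were checked for copies. For 14 symbols the files held more than 1 row: 9 symbols had 2 rows, 4 had 3 and Rpl35a had 4, 34 rows in all with 22.5% of the counts of the set. In the rows' order, 60 of the 62 genes with a single row stood beside genes that RefSeq also places within 15 genes of them, as did 98.6% of 586 other genes checked. Of the 14 repeated symbols, 13 had exactly 1 row at that place, and both rows of Rps19 stood there. For 9 of the 14, the row at the RefSeq place held the smaller part of the counts.
The row of Rpl37 between Card6 and Prkaa1 held 12.1% of its counts (10.2 to 13.6% over the 24 libraries), and the row between Vps53 and Gemin4 held 87.9%. The row of Rpl38 between Sdk2 and Dnai2 held 14.4%, and the row of Rpl9 between Lias and Rfc1 held 12.1%. The 3 rows of Rpl39 held 34.2%, 33.1% and 32.6%, close to equal parts. These splits hardly moved: across libraries the share of a row varied by a median of 3.74 percentage points and at most by 8.97. Whether a read that fits several copies was counted in 1 row or in more is not given in the sources used here, so the level of these 14 genes is uncertain, and the rows of a symbol were summed. Reads from the copies and from the genes themselves cannot be told apart here, and that holds to an unknown extent for the 62 genes with 1 row too.

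Levels spanned a wide range. They are given as CPM, the count per 1000000 of a library size corrected for composition (TMM scaling). These values compare one gene between libraries and not genes with each other, since reads from genes and from their copies cannot be told apart. Rps14, a small-subunit protein of the platform, took the most counts, with a mean of 2688 CPM over the 24 libraries and 5.31% of the counts of the set. Rps9 (1705 CPM), Rps10 (1534 CPM), Rpl35 (1422 CPM), Rps6 (1324 CPM), Rpl41 (1324 CPM) and Rpl34 (1293 CPM) were also among the members with the most counts. At the other end were Rps2 with 44.5 CPM and the tissue-restricted paralogs Rpl3l and Rpl39l, both under 1 CPM on average. No gene of the set was at 0 in all libraries.

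The set as a whole took between 3.23% and 8.17% of the counts of a library, with a median of 4.66%. At day 6 the 3 control libraries had 6.21%, 3.56% and 3.47%, and those at 5 mg/mL had 8.17%, 7.56% and 3.23%. At 10 mg/mL they had 7.56%, 6.53% and 3.49%, and at 20 mg/mL 5.14%, 4.42% and 4.88%. So at 5 and 10 mg/mL replicates 1 and 2 lay above every control library while replicate 3 lay at or below the level of the lower controls. At day 12 the values were 4.60%, 4.56% and 3.98% in the controls, 4.44%, 4.77% and 4.38% at 5 mg/mL, 4.73%, 4.78% and 3.62% at 10 mg/mL, and 4.25%, 5.42% and 5.86% at 20 mg/mL. The day 12 libraries were closer to each other, and the exposed and control ranges overlapped at every dose of both days.

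**Figure D1:**
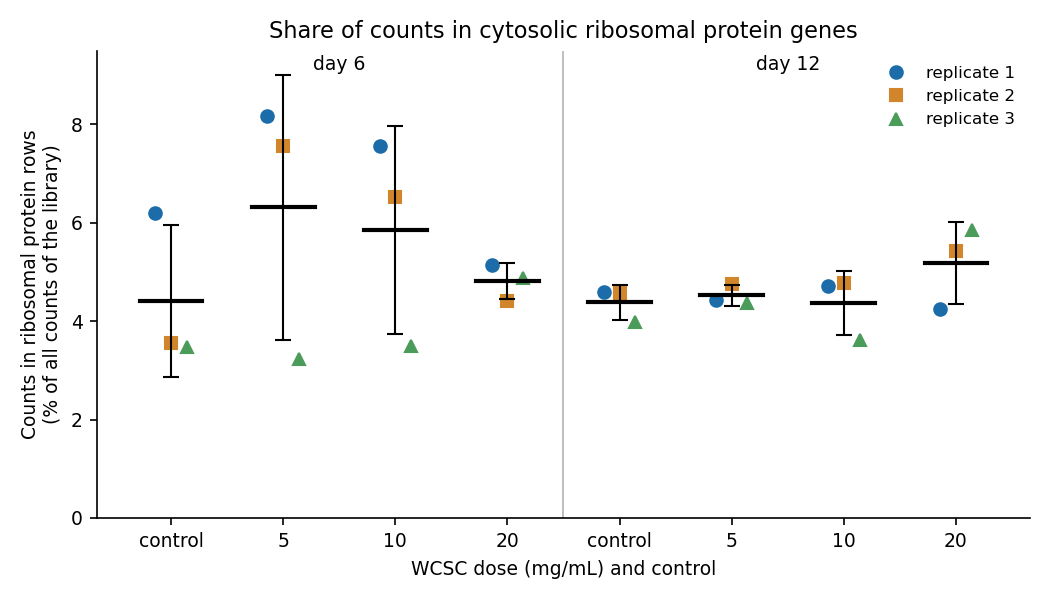
Counts in the 96 rows of cytosolic ribosomal protein genes as a percent of all counts of a library, for the control and 3 WCSC doses at day 6 (left) and day 12 (right). Points are single libraries, marked by replicate number; bars are the mean ± SD of 3. The day 6 points of the control, 5 and 10 mg/mL groups reach from 3.23% to 8.17%, and the day 12 points from 3.62% to 5.86%.

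The day 6 controls had a mean share of 4.41% ± 1.55 (SD, n = 3). The exposed groups of that day had 6.32% ± 2.69 (5 mg/mL), 5.86% ± 2.12 (10 mg/mL) and 4.81% ± 0.365 (20 mg/mL). The day 12 controls had 4.38% ± 0.347, and the exposed groups of that day had 4.53% ± 0.210, 4.37% ± 0.655 and 5.18% ± 0.833 in the same order of dose. The SD within groups, pooled over the 8 groups, was 1.40 percentage points, and the SD of the 8 group means was 0.746. The first is of single libraries and the second of means of 3, which vary less, so they are not like measures. Pooled within day 6 the SD within groups was 1.89 and within day 12 it was 0.567. No test was made of this sum. In RNA from whole tissue, a different mix of cells and a different content of these mRNAs per cell cannot be told apart.

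Both subunits moved together in this. The large-subunit genes took 1.75% to 4.23% of counts and the small-subunit genes 1.48% to 3.93%. The ratio of small-subunit to large-subunit counts stayed between 0.847 and 0.942 over the 24 libraries, while the total share varied 2.53-fold.

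Other properties of the libraries moved in part with the share in the control, 5 and 10 mg/mL groups of day 6. In these groups replicate 1 had the highest share and the most counts of its group, and replicate 3 the lowest share and the fewest counts. At 5 mg/mL the totals were 11109713, 9630339 and 5203358 counts. When all libraries were thinned to 4795667 counts, 11600, 11465 and 12412 genes were detected in these 3, so the libraries with the higher share showed fewer genes. Over all 24 libraries this number ran from 11465 to 12496. The 10 macrophage genes listed, among which Marco was at 0 in all libraries, took 3.51%, 3.74% and 2.09% of counts in the same 3 libraries. In sum they ran from 2.03% to 3.20% in the day 6 controls, from 2.09% to 3.74% at 5 mg/mL, from 2.00% to 4.29% at 10 mg/mL and from 3.06% to 3.46% at 20 mg/mL. At day 12 they ran from 2.00% to 2.95% in the controls, from 2.79% to 2.94% at 5 mg/mL, from 1.90% to 2.64% at 10 mg/mL and from 0.945% to 2.95% at 20 mg/mL. The 8 neutrophil genes listed followed the share in part at day 6. They took 0.0677%, 0.0186% and 0.0227% of counts in replicates 1 to 3 of the controls. At 5 mg/mL they took 0.0668%, 0.0748% and 0.0282%, and at 10 mg/mL 0.0714%, 0.0540% and 0.0279%. Within the controls and at 5 mg/mL the order was not strictly that of the share. At 20 mg/mL they took 0.0507%, 0.0601% and 0.0339%, the most in replicate 2, which had the lowest share of that group. Over all groups of both days they ran from 0.0186% to 0.0795%. The macrophage list did not keep the order either, with 3.20%, 2.03% and 2.31% in the day 6 controls. At 20 mg/mL and day 6 it was highest, 3.46%, in replicate 2. The red blood cell list kept it in the day 6 controls (5.66%, 4.63% and 2.97%) and at 10 mg/mL (4.60%, 3.96% and 3.39%). It did not at 5 mg/mL (3.91%, 5.98% and 4.52%) or 20 mg/mL (4.24%, 6.66% and 1.12%). The part of macrophages, neutrophils and red blood cells in the share was not tested.

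Nearly all members took part in these differences between replicates. Among the 75 genes with enough counts to be tested (all but Rpl39l), 75 had their highest level of the 3 day 6 controls in replicate 1, against 39.1% of all 11421 genes tested and 59.9% of the 1001 other genes of like level. At 10 mg/mL and day 6, 74 had their lowest level in replicate 3 (36.7% of all genes, 52.1% of those of like level). There 70 had their highest in replicate 1 (35.3% and 47.4%). At 5 mg/mL and day 6, 73 were lowest in replicate 3 (34.7% and 49.8%), with 50 highest in replicate 2 (30.9% and 36.1%) and 25 in replicate 1 (29.3% and 33.8%). At 20 mg/mL and day 12 the order was the other way by number: 60 were lowest in replicate 1 (30.3% and 24.8%) and 59 highest in replicate 3 (32.5% and 47.7%). The controls of day 12 were mixed, with 41 genes highest in replicate 1 (39.8% and 46.7%) and 32 in replicate 2 (31.4% and 29.8%).

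**Figure D2:**
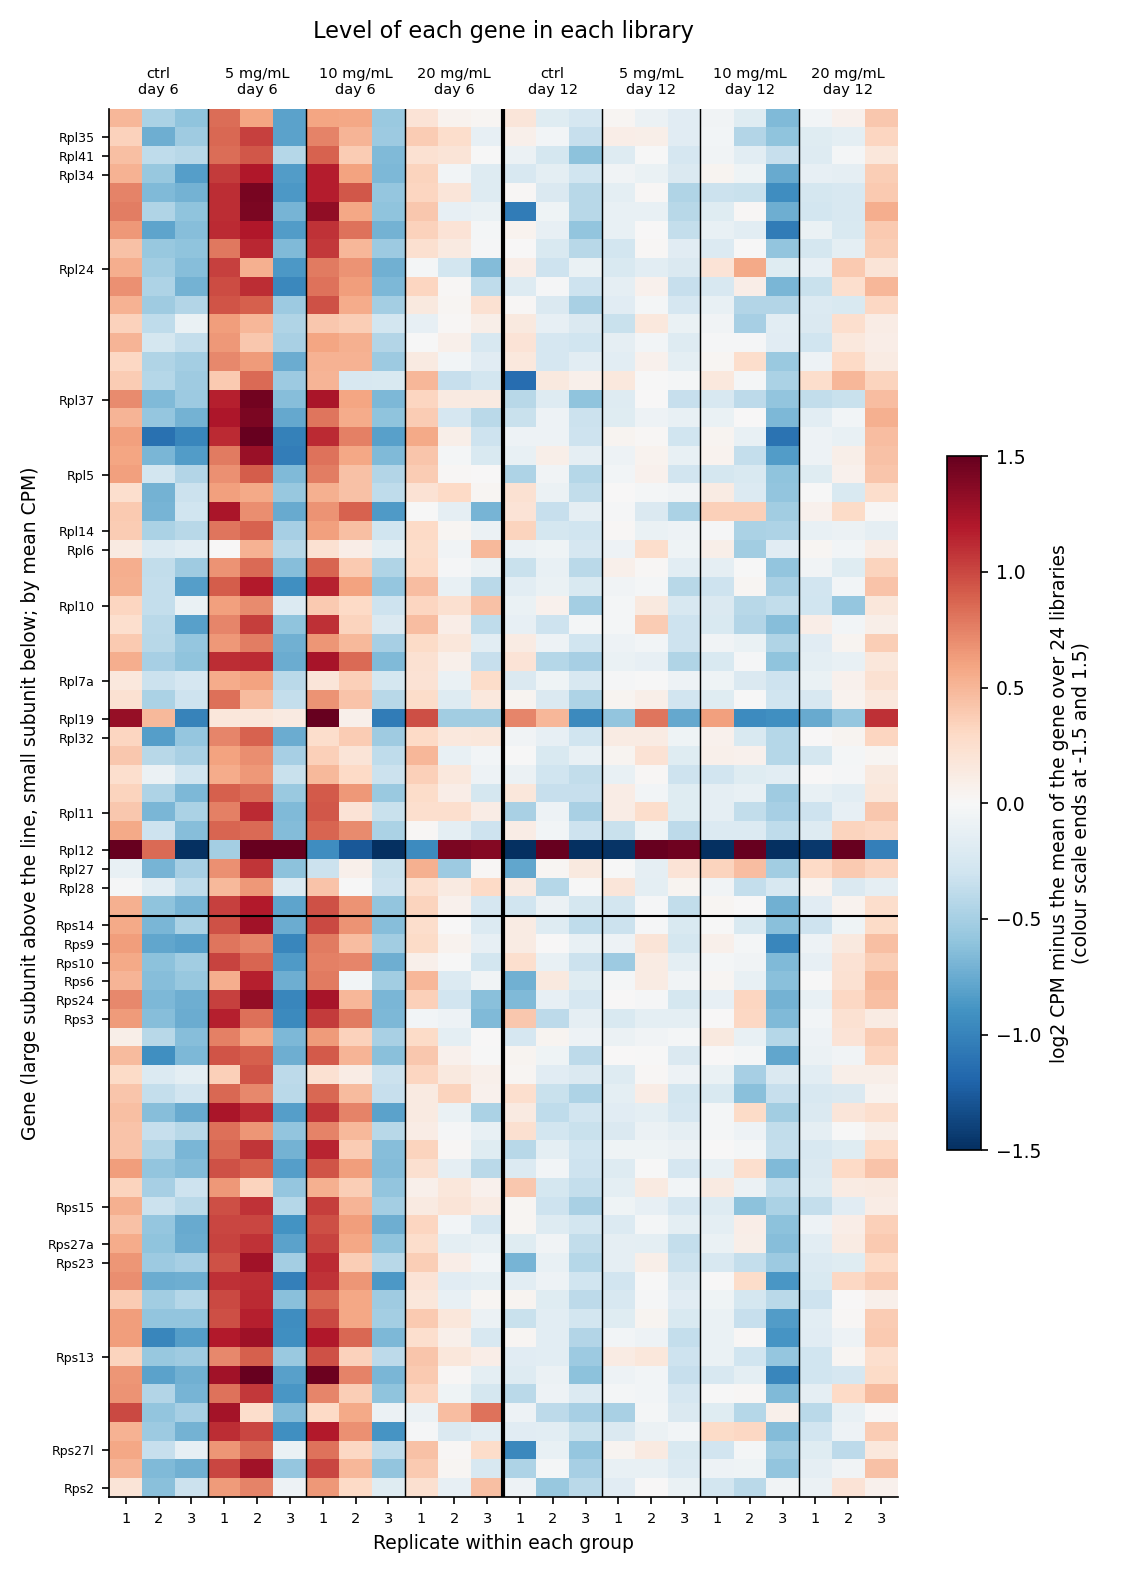
Each row is 1 of 74 genes tested (Rpl3l, at 0 in 8 libraries, is left out), each column 1 of 24 libraries, and the colour is log2 CPM minus the gene's mean over the libraries (red above, blue below; larger deviations take the end colours). Whole columns share a colour at day 6 (replicates 1 and 2 at 5 and 10 mg/mL red, replicate 3 blue), the day 12 columns are paler, and the rows of Rpl12 and Rpl19 follow their own pattern. Only rows of genes discussed in the text carry a name.

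The size of these steps was similar from gene to gene. At 5 mg/mL and day 6 the level in replicate 1 was a median of 2.87 times that in replicate 3 over the 75 genes, with quartiles of 2.42 and 3.66. The same ratio had a median of 0.958 over all genes tested. At 10 mg/mL it was 2.64 (quartiles 2.15 and 3.18), and in the controls 2.12 (1.78 and 2.45). Rps14 shows the common pattern, with 3682, 1545 and 1794 CPM in the day 6 controls, 4847, 5959 and 1491 CPM at 5 mg/mL and 4939, 3959 and 1594 CPM at 10 mg/mL. Its replicate 3 libraries were alike in these 3 groups. At 20 mg/mL Rps14 had 2988, 2510.1 and 2159 CPM, and in the day 12 controls 2715, 2169.9 and 1919.8 CPM.

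The spread of a gene is given as the SD of log2 CPM within groups, pooled over the 8 groups (16 degrees of freedom). Its median over the 75 genes was 0.53, with quartiles of 0.44 and 0.61. All genes tested had a median of 0.42, and the other genes of like level (mean 174 to 1273 CPM) one of 0.29, which 71 of the 75 exceeded. When every gene was divided by the summed count of the set in its library, the median SD of the 75 fell to 0.18, while that of the genes of like level became 0.50. The SD became smaller in 71 of the 75 members, and in 16.9% of the genes of like level. The members are part of that sum, so some decrease is built in. At day 6 the median SD of the members was 0.70 and at day 12 it was 0.26, against 0.31 and 0.23 for the genes of like level.

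**Figure D3:**
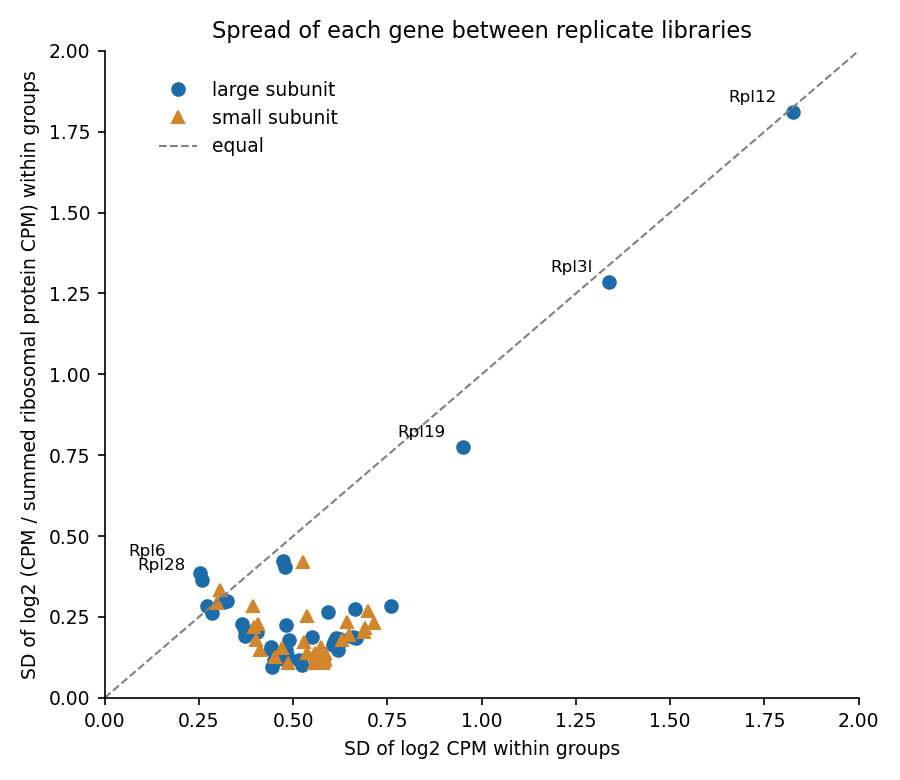
Each point is 1 of 75 genes: the SD of log2 CPM within groups (horizontal) against the SD after division by the summed CPM of the set (vertical), circles for the large and triangles for the small subunit; the dashed line marks equal values. Most points lie well under the dashed line, around medians of 0.53 across and 0.18 up, and Rpl12, Rpl3l and Rpl19 lie apart near it.

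The genes that varied least were Rpl6, Rpl28 and Rpl7a, all of the large subunit, with SDs of 0.25, 0.26 and 0.27. After division by the sum of the set their SDs were higher, 0.39, 0.36 and 0.28, against the median of 0.18, so they followed the common pattern only in part. Rpl6 had 489, 388 and 401 CPM in the day 6 controls and 450.4, 643 and 336 CPM at 5 mg/mL, so that its replicates differed far less than those of Rps14. Over all libraries Rpl6 ran from 311 to 643 CPM, Rpl28 from 96.8 to 203 CPM and Rpl7a from 229.7 to 464 CPM. The level of Rpl7a sums 3 rows, of which 1 is at the RefSeq place.

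At the other end stood Rpl12, with an SD of 1.83. Its protein sits at the base of the stalk to which the GTPase factors bind. Its 24 values fell into separate ranges, 13 libraries between 17.3 and 62.6 CPM and 11 between 160.1 and 603 CPM, with nothing in the 2.56-fold gap between. In the day 6 controls Rpl12 had 376, 160.1 and 17.3 CPM, at 5 mg/mL 62.6, 603 and 309.7 CPM, at 10 mg/mL 46.6, 37 and 24.6 CPM and at 20 mg/mL 46.2, 237 and 231 CPM. In the day 12 controls it had 19.5, 297 and 30.0 CPM, at 5 mg/mL 32, 279 and 246 CPM, at 10 mg/mL 29.1, 293 and 19.9 CPM and at 20 mg/mL 32.6, 519 and 43.6 CPM. Both ranges occur within every group but that at 10 mg/mL and day 6, which is all in the lower one. The split went largely with the replicate number. Replicate 1 lay in the lower range in every group but the day 6 controls. Replicate 2 lay in the upper range in every group but that at 10 mg/mL and day 6. Replicate 3 was in the lower range in some groups and in the upper in others. The reason was not tested. The library with the lowest share of the set, replicate 3 at 5 mg/mL and day 6, was in the upper range of Rpl12, and that with the highest share, replicate 1 of the same group, in the lower one. The libraries with the 3 highest values of Rpl12 (603, 519 and 376 CPM) had shares of 7.56%, 5.42% and 6.21%, all above the median of 4.66%. Over all libraries of the upper range, however, the share ran from 3.23% to 7.56%, and over those of the lower range from 3.47% to 8.17%.

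Rpl19, whose protein forms part of a bridge between the subunits, had an SD of 0.95 and likewise moved apart from the rest. It had 569.6, 321 and 115 CPM in the day 6 controls, 258, 259.7 and 253 CPM at 5 mg/mL, 679, 242 and 112 CPM at 10 mg/mL and 451, 160.1 and 160.0 CPM at 20 mg/mL. At 5 mg/mL, where nearly all members stepped down from replicate 2 to replicate 3, Rpl19 stayed level. At day 12 it had 383, 326 and 119 CPM in the controls, 152, 400.4 and 135 CPM at 5 mg/mL, 351, 119 and 121 CPM at 10 mg/mL and 136, 154 and 491 CPM at 20 mg/mL. After division by the sum of the set, the SD of Rpl19 was still 0.77 and that of Rpl12 1.81. Both genes had a single row each, beside their RefSeq neighbours.

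**Figure D4:**
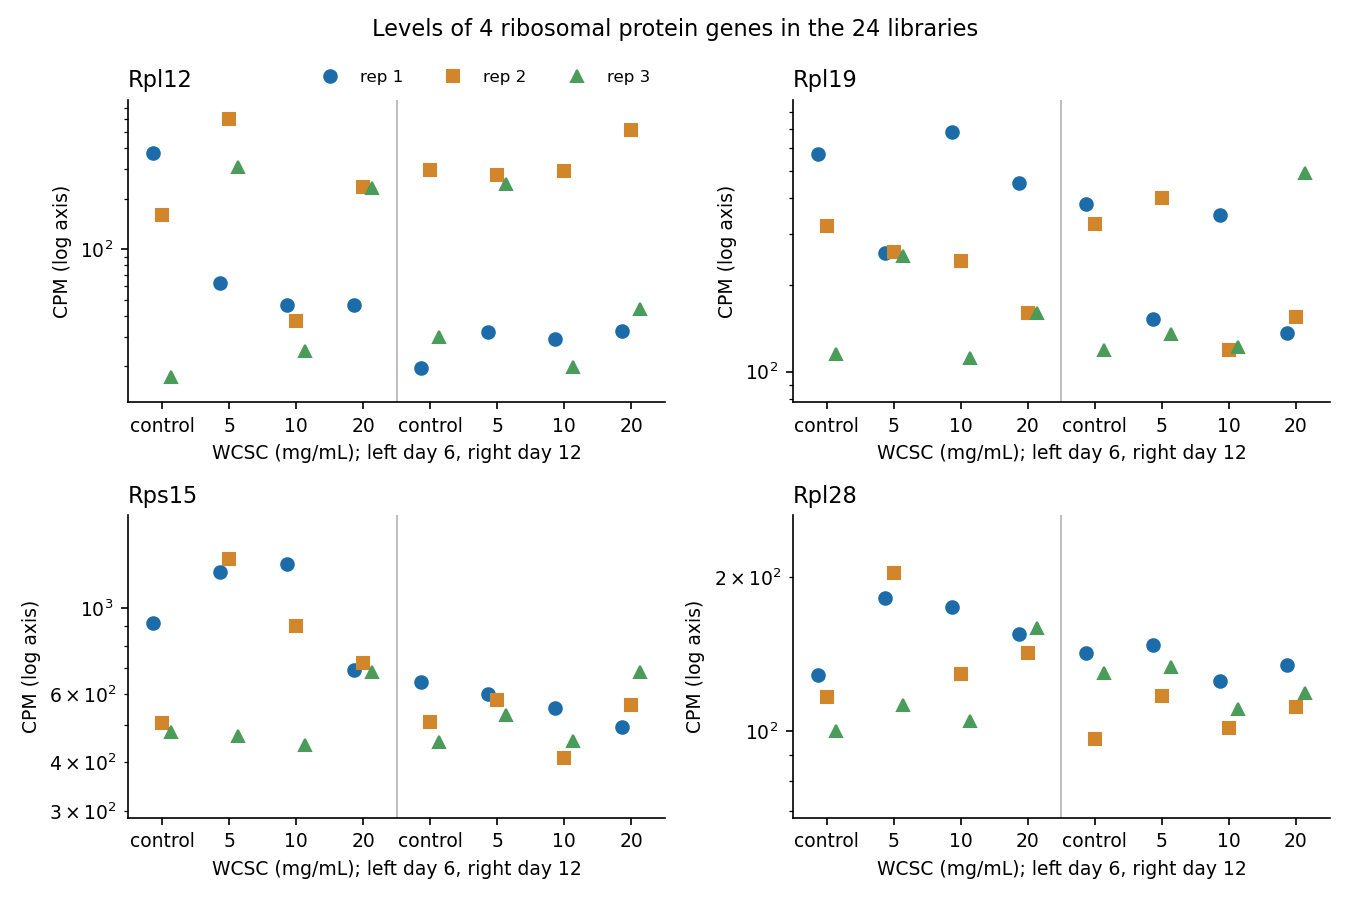
CPM (log axis) of Rpl12, Rpl19, Rps15 and Rpl28 in the control and 3 WCSC doses at day 6 (left of the grey line) and day 12 (right of it), 1 point per library, marked by replicate number. Rpl12 splits into a range up to 62.6 and a range from 160.1 CPM within most groups, Rps15 shows the pattern common to the set, and Rpl28 stays between 96.8 and 203 CPM.

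Each dose was compared with the control of its day to ask which genes differ with exposure. The 3 comparisons of a day share their controls, so their values are set side by side and are not independent. Tests were made with the quasi-likelihood method of edgeR over all 11421 genes, with Benjamini-Hochberg adjustment and a threshold of 0.05. No gene of the set passed in any of the 6 dose comparisons, nor in those between days below, and neither did any gene of the whole table: 0% of all genes tested was called in each. DESeq2 called no member either, while of the whole table it called 1 to 4 genes in 5 of the 6 dose comparisons and 37 between days. The counts of genes at an unadjusted p under 0.05 are given below beside those of all genes.

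At 5 mg/mL and day 6 the set was higher in the mean, but only through replicates 1 and 2. The median log2 fold change of the 75 genes was 0.68 (a fold of 1.60), from -1.25 in Rpl3l to 1.17, and -0.01 over all genes. There were 73 genes with a value above 0, against 49.1% of all genes, and 18 with an unadjusted p under 0.05, all higher, against 4.7% of all genes. DESeq2 gave 30 members at that unadjusted level, against 5.58% of all genes. The smallest adjusted p of a member was 0.896 (edgeR). No member had its 3 exposed libraries all above the 3 controls, which 4.18% of all genes did. The median was 1.12 without replicate 1 of the controls, 1.02 without replicate 3 of the exposed and 0.41 without replicate 2 of the exposed. The count of 18 became 67 (9.55% of all genes), 69 (16.7%) and 1 (2.44%) in these fits. It became 2 without replicate 1 of the exposed (2.83%) or without replicate 2 or 3 of the controls (2.76% and 2.68%), and 34 without replicate 3 at 10 mg/mL (5.39%), and lay between 12 and 25 without any other library. With the 8 libraries that showed the fewest genes left out, the median was -0.15. Among these 8 are replicates 1 and 2 at 5 mg/mL and at 10 mg/mL and replicate 1 of the controls. These replicates have the highest shares of the set, 6.21% to 8.17%, so a changed median is in part built in.

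At 10 mg/mL and day 6 the median was 0.51, with 73 genes above 0 (50.1% of all genes) and 1 gene, Rpl17, at an unadjusted p under 0.05 (2.72% of all genes). Rpl17 is named after its value was seen. No member was free of overlap with the controls (2.98% of all genes), and Rpl12 had the lowest value, -2.35. The median was 0.95 without replicate 1 of the controls, 0.33 and 0.32 without their replicates 2 and 3, 0.22 without replicate 1 of the exposed and 0.82 without their replicate 3. The count of 1 became 53 without replicate 1 of the controls (8.09% of all genes), 44 without replicate 3 of the exposed (13.2%), 9 without replicate 3 at 5 mg/mL (3.37%) and 0 without replicate 2 of the controls or replicate 1 of the exposed (1.8% and 1.35%). Without the 8 libraries with the fewest genes the median was -0.01. In both of these comparisons that step left 1 exposed library, which is taken to vary like the other groups.

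At 20 mg/mL and day 6 the median was smaller, 0.20, with 67 genes above 0 (49.6% of all genes) and 0 at an unadjusted p under 0.05 (4.08% of all genes). The highest values belonged to Rpl27 at 0.48 ± 0.34 (SE; adjusted p = 1.00), Rpl32 at 0.48 ± 0.32 (SE; adjusted p = 1.00) and Rps13 at 0.42 ± 0.33 (SE; adjusted p = 1.00), the values in brackets from edgeR. Rpl32 had 316, 143 and 169 CPM in the controls and 309.8, 281 and 284 CPM at 20 mg/mL, where control replicate 1 lay above all 3 exposed libraries. The lowest were Rpl19 (-0.39), Rpl24 (-0.20) and Rps3 (-0.13), the last a protein at the mRNA entry channel; each of these was above 0 when replicate 1 of the controls was left out. Rpl28 was the 1 member with all 3 exposed libraries above the 3 controls (4.07% of all genes), at 129, 117 and 100.2 CPM against 155, 142 and 159 CPM. The median was 0.60 without replicate 1 of the controls, with 9 members at an unadjusted p under 0.05 (4.77% of all genes), 0.02 and 0.01 without their replicates 2 and 3, and 0.07 without replicate 1 of the exposed. Without the 8 libraries with the fewest genes the median was 0.62. That step left out replicate 1 of the controls, with their highest share (6.21%), and replicate 2 of the exposed, with their lowest (4.42%). A higher median is thus in part built in. The 9 macrophage genes tested had a median of 0.47 in this comparison, 9 of 9 above 0, and their part in the values of the set was not tested.

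At day 12 the values at 5 and 10 mg/mL lay near 0. At 5 mg/mL the median was 0.08, with 57 genes above 0 (49.8% of all genes), 0 at an unadjusted p under 0.05 (1.25% of all genes) and 1, Rps29, free of overlap with the controls (3.84% of all genes). At 10 mg/mL it was -0.05, with 30 above 0 (51.1% of all genes), 0 at an unadjusted p under 0.05 (2.09%) and 0 free of overlap (3.92%). The medians over single libraries left out ran from -0.01 to 0.15 at 5 mg/mL, the lowest without replicate 3 of the controls, and from -0.11 to 0.09 at 10 mg/mL, the highest without replicate 3 of the exposed.

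At 20 mg/mL and day 12 the median was 0.24 (a fold of 1.18), with 71 of 75 genes above 0 (51.4% of all genes) and 0 at an unadjusted p under 0.05 (3.69% of all genes). All 31 small-subunit genes were above 0, with a median of 0.26, and 40 of 44 large-subunit genes, with one of 0.23. For 8 members, 10.7% of those tested, the 3 exposed libraries all lay above the 3 controls, against 3.56% of all genes: Rpl4, Rpl6, Rpl27, Rpl29, Rpl32, Rpl34, Rps12 and Rps24. Rps24 had 707, 1027 and 941 CPM in the controls and 1042, 1393 and 1534 CPM at 20 mg/mL, a difference of 0.57 ± 0.48 (SE; adjusted p = 0.998) by edgeR. Rpl27 had 90.1, 159 and 171 CPM against 190.0, 204 and 193 CPM, and again its highest control lay below its lowest exposed library. The values without overlap were small beside the spread of the model, and none approached its threshold. Rpl19 (-0.08), Rpl14 (-0.07) and Rpl10 (-0.04) had the lowest values, all close to 0. The median was 0.10 without replicate 3 of the exposed. Replicate 2 of the exposed stood apart in its markers, with 0.368% of counts in the heart muscle list, 0.828% in the alveolar type II list, 0.477% in the type I list and 0.945% in the macrophage list. The 9 heart muscle genes tested had a median of 4.37 in this comparison (9 of 9 above 0, 8 at an unadjusted p under 0.05), the 8 airway epithelium genes one of 1.15 (7 of 8 above 0) and the 9 endothelium genes one of -0.31 (9 of 9 below 0). Without that library the median of the set was 0.27.

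**Figure D5:**
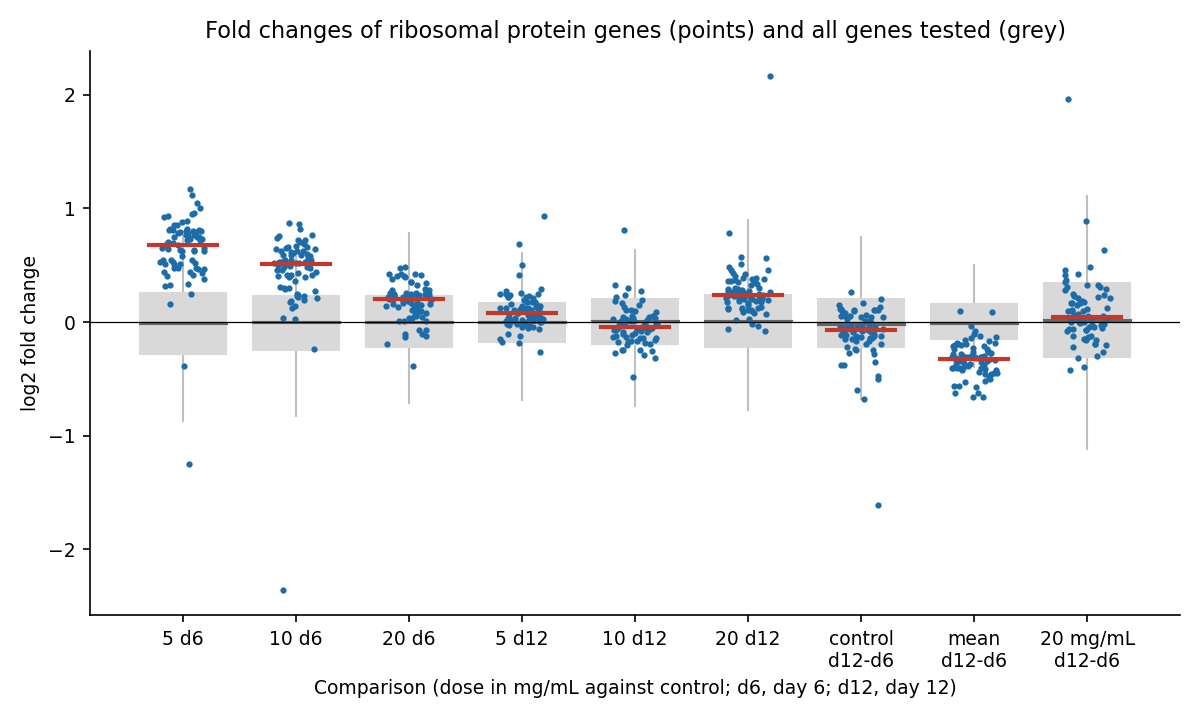
Log2 fold changes of the 75 genes tested (points, red line at the median) in 9 comparisons: 3 doses against control at day 6 and at day 12, the controls between days, the means of the 4 groups between days, and the 20 mg/mL effect between days. Grey boxes span the interquartile range of all 11421 genes and grey lines their 5th to 95th percentiles. The points sit above the grey median at 5 and 10 mg/mL at day 6 (medians 0.68 and 0.51) and below it for the mean of day 12 against day 6 (median -0.32).

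The effect of 20 mg/mL did not differ detectably between the days: the median difference was 0.04, 44 of 75 genes were above 0 (51.7% of all genes) and 0 had an unadjusted p under 0.05 (3.83% of all genes). The sign of this median turned with the library left out, from -0.36 without replicate 1 of the day 6 controls to 0.24 without their replicate 3.

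Between the days, the mean of the 4 groups at day 12 was lower than that at day 6. The median was -0.32, a fold of 0.799, with 2 of 75 genes above 0 (48.8% of all genes), Rpl12 and Rpl27. There were 27 genes at an unadjusted p under 0.05, all lower, against 9.31% of all genes, and none past the adjusted threshold. Over single libraries left out this count ran from 13 without replicate 1 at 10 mg/mL and day 6 (6.84% of all genes) to 58 without replicate 3 at 5 mg/mL and day 6 (15%). It was 49 without replicate 3 at 10 mg/mL and day 6 (14.6%), 14 without replicate 1 of the day 6 controls (7.3%), 14 without replicate 2 at 5 mg/mL (8.63%) and 16 without its replicate 1 (7.38%). It was 18 without replicate 3 at 10 mg/mL and day 12 (9.08%). The 9 red blood cell genes tested had a median of -1.20 in this comparison (9 of 9 below 0, 8 at an unadjusted p under 0.05) and the 9 macrophage genes one of -0.31 (7 of 9 below 0, 4 at an unadjusted p under 0.05). The 5 neutrophil genes tested had one of -0.34 (3 of 5 below 0) and the 9 heart muscle genes one of 1.52 (9 of 9 above 0). Replicate 2 at 20 mg/mL and day 12 had 0.368% of its counts in the heart muscle list, against at most 0.0234% in any other library. The part of these cells in the difference was not tested. The smallest p belonged to Rps27l, at -0.53 ± 0.15 (SE; adjusted p = 0.297) by edgeR, with an unadjusted p = 0.00179. Next came Rps15, a protein of the head of the 40S subunit, at -0.56 ± 0.17 (SE; adjusted p = 0.354), Rpl10, a protein joined late to the 60S subunit near its catalytic centre, at -0.41 ± 0.13 (SE; adjusted p = 0.354), Rpl37 at -0.66 ± 0.22 (SE; adjusted p = 0.384), and Rps23, a protein of the decoding centre, at -0.57 ± 0.19 (SE; adjusted p = 0.398), likewise by edgeR.
The libraries behind such a difference can be seen in Rps15. At day 6 it had 916, 505 and 479 CPM in the controls, 1237, 1335 and 468 CPM at 5 mg/mL, 1297, 896 and 445 CPM at 10 mg/mL and 693, 721 and 686 CPM at 20 mg/mL. At day 12 it had 644, 508 and 452 CPM, 602, 581 and 531 CPM, 552, 411 and 454 CPM and 493, 563 and 682 CPM in the same order. The day 6 values furthest above those of day 12 were from replicates 1 and 2 at 5 and 10 mg/mL and from control replicate 1, and the 3 libraries at 20 mg/mL lay just above the highest of day 12. Without the 8 libraries with the fewest genes, which include the first 5 of these, the median of the set between days was 0.26, the other direction. With the number of genes detected as a covariate it was -0.08, and with the total count as a covariate, chosen after seeing the data, 0.03. The controls alone differed by a median of -0.07 between days, with 24 genes above 0 (47.8% of all genes) and 0 at an unadjusted p under 0.05 (2.47%). They differed by 0.38 without replicate 1 of the day 6 controls, by -0.24 and -0.23 without their replicates 2 and 3, by -0.13 without replicate 1 of the day 12 controls and by -0.0020 without their replicate 3.

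In the edgeR quasi-likelihood test of any difference among all groups, 3 members had an unadjusted p under 0.05 (4.18% of all genes), against 9 with DESeq2 (6.57% of all genes), which called 49 genes of the whole table and no member. The count of 3 was not stable: it was 50 without replicate 3 at 5 mg/mL and day 6 (8.62% of all genes), 27 without replicate 3 at 10 mg/mL and day 6 (7.69%), 19 without replicate 1 of the day 6 controls (4.91%), 6 without replicate 3 at 20 mg/mL and day 12 (4.75%), and 1 to 3 without any other library. The 3 were Rps2, Rps27l and Rps15, Rpl37 was among the 5 with the smallest p, and the adjusted p of each was 0.999 (edgeR, Benjamini-Hochberg). Rps2, a protein beside the mRNA entry channel, was among the members with the fewest counts. It had 49.3, 27.9 and 34.5 CPM in the day 6 controls, 67.1, 72.4 and 40.8 CPM at 5 mg/mL and 67.5, 52.9 and 38.1 CPM at 10 mg/mL. The value of its replicate 1 of the controls lay above those of replicate 3 in both exposed groups.

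Grouped by place in the ribosome, the genes had medians near those of the whole set. The 10 for proteins at the exit tunnel and its rim had a median log2 fold change of 0.79 at 5 mg/mL and day 6, 9 of 10 above 0, the exception being Rpl19. The 6 on the factor-binding and peptidyl transferase side had 0.64, the 5 at mRNA entry and decoding 0.69 and the 5 at mRNA exit and the platform 0.63. At 20 mg/mL and day 12 the same 4 groups had 0.19, 0.16, 0.18 and 0.15. Between days they had -0.33, -0.30, -0.34 and -0.44. None of their members passed the test. The 13 genes known from Diamond-Blackfan anaemia, an inherited failure of red cell production, had 0.75 at 5 mg/mL and day 6 and -0.39 between days.

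Rpl5 and Rpl11, which bind the 5S ribosomal RNA and can hold the p53 inhibitor Mdm2 when ribosome assembly is disturbed, followed the set. Rpl5 had 799.6, 431 and 385 CPM in the day 6 controls and 842, 981 and 330.4 CPM at 5 mg/mL. Rpl11 had 291, 136 and 158 CPM and 371, 474 and 138 CPM. In both genes replicates 1 and 2 at 5 mg/mL lay above all controls and replicate 3 within or below the range of control replicates 2 and 3. At 20 mg/mL the log2 fold changes of Rpl5 were 0.10 at day 6 and 0.43 at day 12, and those of Rpl11 0.38 and 0.36.

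Rps6, the protein that the S6 kinases phosphorylate, had 1777, 799 and 839 CPM in the day 6 controls, 1816, 2808 and 749 CPM at 5 mg/mL and 1758, 1082 and 1201 CPM at 20 mg/mL. At day 12 it had 756, 1379.8 and 1101 CPM in the controls and 1241, 1468 and 1746 CPM at 20 mg/mL, where exposed replicate 1 lay below control replicate 2. Rps27a, which is made as a fusion with ubiquitin, had 752, 337 and 305 CPM in the day 6 controls, 1038, 1088 and 293 CPM at 5 mg/mL and 1037, 769 and 338 CPM at 10 mg/mL. It is close to a copy of the common pattern, with an SD of 0.58 that fell to 0.11 after division by the sum of the set.

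Of the paralogs named in the set, Rps27l, a relative of Rps27 that p53 can induce, was expressed in every library, from 66 to 232 CPM. It had 193, 102 and 118 CPM in the day 6 controls, 66, 120.1 and 86.2 CPM in the day 12 controls and 114, 98 and 144 CPM at 20 mg/mL and day 12. The exposed values overlapped those of the controls. Rpl3l, the muscle form of Rpl3, had 0 to 22 counts per library and was at 0 in 8. Its highest value, 4.19 CPM, was in replicate 2 at 20 mg/mL and day 12, the group's other libraries being at 0. In that library 12 heart muscle genes took the 0.368% of counts given above, and at most 0.0234% in any other. The fitted value of Rpl3l in that comparison, 2.16, was negative, -4.14, without that library; against groups with libraries at 0 neither is a measure of size. Rpl39l, a paralog of Rpl39 best known from the testis, was at 0 in 13 libraries, had 55 counts in replicate 1 at 10 mg/mL and day 6 and at most 18 elsewhere, and was not tested.

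Related genes outside the name rule were counted to see how far the pattern reaches. Of 12 further cytosolic ribosomal protein genes listed, 9 were in the files and tested. None passed the test in any comparison, and their median was 0.44 at 5 mg/mL and day 6 (8 of 9 above 0) and -0.24 between days (9 of 9 below 0). Rplp1, a stalk protein, had a mean of 2013 CPM and an SD of 0.56 that fell to 0.13 after division by the sum of the set, as in the members. Rplp0, the stalk's anchor, varied less, with an SD of 0.26 before and 0.31 after. Of 20 translation factors and other genes with TOP mRNAs, 0 passed in either direction, with a median of 0.34 at 5 mg/mL and day 6 (20 of 20 above 0) and -0.15 between days (18 of 20 below 0). Tpt1 and Eef1a1, both classical TOP genes, had log2 fold changes of 0.62 and 0.54 at 5 mg/mL and day 6, above that median, and Eef2 had 0.17. Between days Tpt1 had -0.20, Eef1a1 -0.0025 and Eef2 -0.24. After division by the sum of the set the SD fell in Tpt1 (0.53 to 0.41). It rose in Eef1a1 (0.36 to 0.43) and in Eef2 (0.22 to 0.39).

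Genes that build ribosomes had smaller values. Of 25 ribosome biogenesis genes listed, 23 were tested. Their median was 0.09 at 5 mg/mL and day 6, 15 of 23 above 0, and 0.02 between days, and 0 passed. Their median SD within groups was 0.32, against 0.53 for the members. They took between 0.166% and 0.167% of counts in the 3 libraries at 5 mg/mL and day 6, in which the share of the set varied most. The 67 mitochondrial ribosomal protein genes tested had a median of 0.25 in that comparison (56 of 67 above 0) and -0.17 between days (60 of 67 below 0), with a median SD of 0.32 and 0 past the threshold. The 12 regulators of initiation and elongation tested had medians of 0.20 and -0.01, with 0 past the threshold.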

How the data were processed

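RNA of 24 rat lung samples, in 8 groups of 3 taken from the labels (control and 5, 10 and 20 mg/mL WCSC at days 6 and 12), was measured by QuantSeq. For each sample the authors deposited 1 table of raw counts by gene symbol. The values are whole numbers whose totals differ between samples. Bowtie2, bedtools and the build rn6 were used, per the submitters' processing notes. Versions, annotation, strand setting and the treatment of reads that fit several places were not given in the sources used here. Depth was 4795667 to 11109713 counts per library, so counting error is small for all members but Rpl3l and Rpl39l.

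Rows were picked by symbol and the rows of a symbol summed. This was chosen after 14 member symbols were found to repeat; the plan had left repeated symbols out, which is now an alternative. Genes were kept by filterByExpr (11421), scaled by TMM and fitted with the edgeR 4.0.16 quasi-likelihood method in R 4.3.3, with 8 group means over 24 libraries (16 residual degrees of freedom), two-sided, with Benjamini-Hochberg adjustment over all genes. The model was tested on simulated data, with large changes in genes drawn independently of each other. That setting does not cover small changes that many genes share. Fold changes are on the log2 scale, log2 CPM used a prior count of 2, and CPM came from TMM library sizes. SEs of fold changes come from the F statistic. The share of counts used all 96 rows, with no test. RefSeq sequences and neighbours come from GRCr8, whose gene coordinates were used for no row of the files.

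Members and lists were chosen with earlier results of these data known. Genes named by rule were the 8 with the highest mean CPM, the 3 highest and 3 lowest fold changes at 20 mg/mL of each day, the 5 smallest p over the 8 groups and between days, the 3 largest and 3 smallest SDs, Rpl5, Rpl11, Rps27a, Rps6, the paralogs and, of other lists, at most 3. Rpl17, Rps29, Rpl27, Rpl35a and genes named for lack of overlap or for repeated rows were named after their values were seen. Some genes that the rule names are not reported here. Alternatives were other scalings, filters and tests (DESeq2 1.42.0 among them), a replicate block, covariates, and libraries left out. Of the cell lists, those for macrophages, neutrophils, red blood cells, heart muscle, airway epithelium, endothelium and alveolar cells are given where they move with a value reported.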

Additional observations from a re-analysis of the deposited data

How the results depend on the processing

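No member was called in any of the 36 other settings, 24 of which left out 1 library. With the 8 libraries of fewest detected genes left out, an alternative that leaves 1 library at 5 and at 10 mg/mL of day 6, the median log2 fold change of the set was -0.15 at 5 mg/mL and -0.014 at 10 mg/mL of day 6, 0.26 between days and -0.46 for the difference in the 20 mg/mL effect; the cause was not tested. The median SD within groups was then 0.23. Among these 8 are all libraries with a share of at least 5.86%, so a smaller spread and changed medians are in part built in. In the same setting Rpl19 was 0.47, Rpl24 0.25 and Rps3 0.36 at 20 mg/mL and day 6, Rpl14 0.18 at 20 mg/mL and day 12, and Rpl37 0.088 and Rps23 0.077 between days. With detected genes as a covariate Rps3 was 0.033 and Rpl14 0.0065, and with the total count as a covariate, chosen after seeing the data, Rps3 was 0.026. Against a total without the 1% of other rows with the highest counts, the mean share was 6.69%, 9.95%, 8.94% and 7.51% at day 6 and 6.56%, 6.79%, 6.31% and 7.52% at day 12, from control to 20 mg/mL. Without globin and ribosomal RNA rows it was 5.39% at 20 mg/mL and day 6, and 4.82% and 4.91% in the control and 5 mg/mL groups of day 12. Without Rps14 the last was 4.30%.

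The labels give the groups the same replicate numbers. At day 6 the 18 same-numbered pairs of libraries had correlations of their deviations from -0.19 to 0.59, with a median of 0.17, and 10 were above 0.1. The 36 pairs with other numbers ran from -0.52 to 0.38, with a median of -0.10, and 10 were above 0.1. At day 12 the medians were 0.02 and -0.02. Same-numbered libraries of day 6 were thus somewhat more alike, and the reason was not tested. Each library enters several pairs of both kinds, so the medians of a day are not independent of each other. The labels do not say that the numbers pair the samples, so the main fit had no block. With a replicate block the medians at 5, 10 and 20 mg/mL were 0.63, 0.50 and 0.25 at day 6 and 0.09, -0.05 and 0.30 at day 12, and -0.26 between days. Rpl19 at 20 mg/mL and day 12 was 0.30 under the block.

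Over single libraries left out, the values at 20 mg/mL and day 6 ran from -1.07 to 0.23 for Rpl19, from -0.40 to 0.28 for Rpl24 and from -0.37 to 0.46 for Rps3. At day 12 they ran from -0.93 to 0.23 for Rpl19, from -0.17 to 0.17 for Rpl14, from -0.27 to 0.12 for Rpl10, from -1.59 to 2.99 for Rpl12 and from -4.14 to 6.30 for Rpl3l. A share of 3 libraries with SDs up to 2.69 percentage points, and counts of at most 22 for Rpl3l, limit what these comparisons can resolve.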
